A study of Homo sapiens with 8 samples.

Results

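The 4 ovarian cancer cell lines of the study were compared as 2 pairs, SKOV-3 and DOV-13 against CAOV-3 and OVCAR-3. Part of the mesenchymal genes were higher in SKOV-3 and DOV-13, and part of the epithelial genes in CAOV-3 and OVCAR-3. The split was not complete: all 4 lines carried keratins of simple epithelium, and CAOV-3 had several mesenchymal transcripts. All 8 arrays belong to this contrast, 4 on each side. Of 11963 genes measured, 275 separated the sides: 138 were higher in SKOV-3 and DOV-13 and 137 were higher in CAOV-3 and OVCAR-3. A gene counted when the lowest of the 4 arrays of one side was at least 1 log2 unit, or 2-fold, above the highest of the 4 arrays of the other side, and the mean of the higher side reached the level of the median gene (6.78 on the log2 scale). The pairs of lines and the genes were selected on these same expression values, so levels and differences between the sides are a description and are given without a test.

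The study gave pI:pC, a synthetic double-stranded RNA, to established human ovarian cancer lines and compared them with untreated cells. Each line has 1 array of untreated cells and 1 array of cells given pI:pC, at a dose and for a time that the labels leave unstated for the single array. The groups were therefore untreated SKOV-3 and DOV-13, pI:pC-treated SKOV-3 and DOV-13, untreated CAOV-3 and OVCAR-3, and pI:pC-treated CAOV-3 and OVCAR-3, each with 2 lines, and all were grown in the same medium with fetal bovine serum. A line mean averages the untreated and the treated array, so it carries part of that line's difference with pI:pC, which was not the same in all lines. The rule for separation therefore asks for the margin on both kinds of array, and both arrays are given for the genes described most closely. The lines are the independent units, n = 2 a side, and the 2 arrays of a line are not replicates of each other. Whether RNA of several cultures was pooled on an array is not stated, so the error between cultures of a line is unknown.

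Epithelial cells hold to each other through E-cadherin, tight junctions and desmosomes, and keep apical and basal surfaces apart. In an epithelial-mesenchymal transition, cells lose these contacts and gain vimentin filaments, N-cadherin and matrix. The transcription factors ZEB1, SNAI1, SNAI2 and TWIST1 repress epithelial genes through E-boxes, while ESRP1, GRHL2, OVOL2 and EHF sustain the epithelial state. Ovarian carcinomas come from Mullerian-type epithelium and often keep traits of both states, and their cell lines vary widely between them.

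All 4 lines carried keratins of simple epithelium. KRT8 lay between 10.53 and 11.54 on all 8 arrays, KRT18 between 11.52 and 12.59 and KRT19 between 10.41 and 11.68. KRT7 was lower in SKOV-3, at 7.51 and 7.54, than in the other lines, at 10.62 to 12.20. Markers of other cell types were compared with the median of all probe sets on the same array, which was 6.19 to 6.30. Of 14 leukocyte markers 11 stayed below it on every array, of 10 endothelial markers 9 did, of 12 fibroblast markers 8 and of 10 mesothelial markers 3. Many probe sets lie below a median by definition, and the share of all genes below it on every array was not counted. These counts therefore do not show that a cell type is absent. The dim ones included PTPRC and CD3E of leukocytes, PECAM1, CDH5, VWF and KDR of vessels, and DCN, LUM, COL3A1 and PDGFRB of fibroblasts. CD4 was above the median on all 8 arrays, between 6.52 and 6.93. THY1 reached the median on 7 arrays, and NCR1 and TEK did on 2 each. CD14 was above the median on the untreated CAOV-3 array alone, at 7.06, and was at 6.15 with pI:pC. COL1A1 was above it throughout, between 7.13 and 7.56. COL1A2 was high in SKOV-3, with a line mean of 8.04, and S100A4 was high in all lines but DOV-13, with 12.69 in SKOV-3.

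Of the 10 mesothelial markers, 8 had a higher mean in CAOV-3 and OVCAR-3, as did 5332 of all 11963 genes. For 4 of the 10 the sides did not overlap in this direction, which held for 1268 of the 11963 genes. The mean level of the 10 was 5.47 to 5.54 on the SKOV-3 and DOV-13 arrays and 5.84 to 6.52 on the others, and its part in the differences between the sides was not tested. C3, a complement component, had line means of 6.31, 6.53, 8.28 and 9.16 in SKOV-3 and DOV-13 and then CAOV-3 and OVCAR-3. UPK1B, a uroplakin, was high in OVCAR-3 alone, at 10.23. CALB2, which encodes calretinin, and UPK3B were each above the array median on 1 array and reached at most 6.55 and 6.25. The leukocyte, endothelial and fibroblast lists overlapped between the sides in their mean level. None of the markers of these 4 lists separated the sides by the rule. PAX8, the Mullerian lineage factor, was above the array median throughout, with line means of 10.09, 8.68, 8.08 and 10.57 in SKOV-3 and DOV-13 and then CAOV-3 and OVCAR-3.

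Vimentin and E-cadherin showed the widest gaps of all genes, in opposite directions. In the values that follow, each line's untreated array comes before its pI:pC array. VIM, the intermediate filament protein of mesenchymal cells, read 13.60 and 13.58 in SKOV-3, 13.49 and 13.49 in DOV-13, 7.53 and 7.23 in CAOV-3, and 5.30 and 5.80 in OVCAR-3. The lowest SKOV-3 or DOV-13 array stood 5.95 log2 units above the highest CAOV-3 or OVCAR-3 array, and the side means over lines were 13.54 ± 0.07 against 6.46 ± 1.30 (SD, n = 2 lines a side), a difference of 7.07. CDH1, which encodes E-cadherin, the calcium-dependent adhesion molecule of epithelial junctions, read 3.74 and 3.89 in SKOV-3, 3.58 and 3.96 in DOV-13, 9.70 and 9.49 in CAOV-3, and 9.41 and 9.52 in OVCAR-3. All 4 SKOV-3 and DOV-13 arrays were far below the array median, and the gap to the other side was 5.45, with side means of 3.79 ± 0.029 against 9.53 ± 0.093 (SD, n = 2 lines a side). Another CDH1 probe set separated the sides in the same direction.

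**Figure D1:**
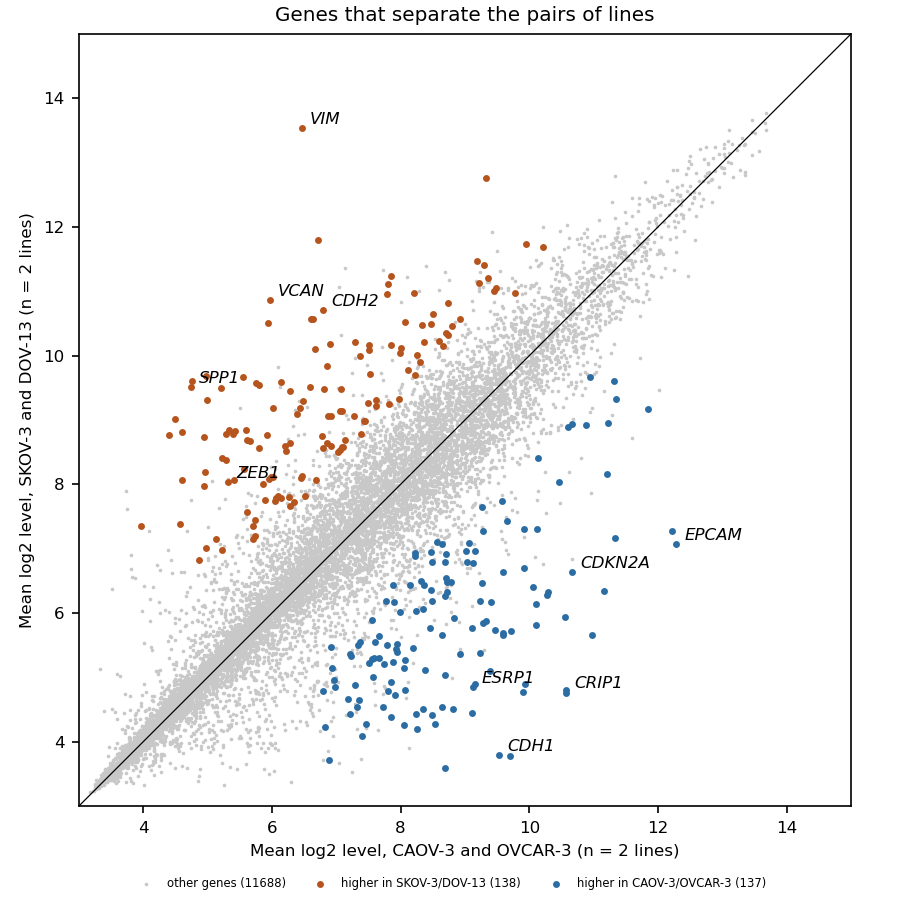
Each point is a gene, placed by its mean log2 level over CAOV-3 and OVCAR-3 (x axis) and over SKOV-3 and DOV-13 (y axis), with the line of equal levels. The 138 genes that separate the sides with higher levels in SKOV-3 and DOV-13 (orange) and the 137 with higher levels in CAOV-3 and OVCAR-3 (blue) lie on both flanks of 11688 other genes (grey), with VIM and CDH1 among those farthest out.

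The share of genes that separated the sides was 1.15% in each direction and 2.3% in all. Without the 1-unit margin, the 4 arrays of one side did not overlap those of the other for 3177 genes (26.6%), so a lack of overlap alone is common here. A limma fit on the 4 line means called 0 of the 11963 genes (0%) at an adjusted p of 0.05, with a smallest adjusted p of 0.113 and 1239 genes at an unadjusted p under 0.05. The fit has 2 residual degrees of freedom. Over all genes the median difference between the sides was 0.04, with 6631 positive and 5332 negative values. RMA brings the arrays to a common distribution, so a median near 0 follows from the normalization.

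SKOV-3 and DOV-13 resembled each other more than any other pair of lines, and CAOV-3 and OVCAR-3 did not. SKOV-3 and DOV-13 had 824 genes apart (6.89%) by the same 1-unit margin, counted between the 2 arrays of each line, and their line means correlated across genes at r = 0.940. CAOV-3 and OVCAR-3 had 1427 genes apart (11.9%) and r = 0.895. The 4 pairs that cross the sides had 1436 to 1574 genes apart (12% to 13.2%) and r of 0.889 to 0.897, a range that holds the r of CAOV-3 and OVCAR-3. Treated and untreated arrays of a line correlated at 0.991 to 0.997. These are correlations across genes, which are not independent of each other, within 4 lines. By the median absolute difference across genes, CAOV-3 and OVCAR-3 were the pair farthest apart, at 0.322. The pairs that cross the sides had 0.302 to 0.316, and SKOV-3 and DOV-13 had 0.208. CAOV-3 and OVCAR-3 thus shared a set of selected epithelial genes while differing from each other about as widely as from the other side.

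**Figure D2:**
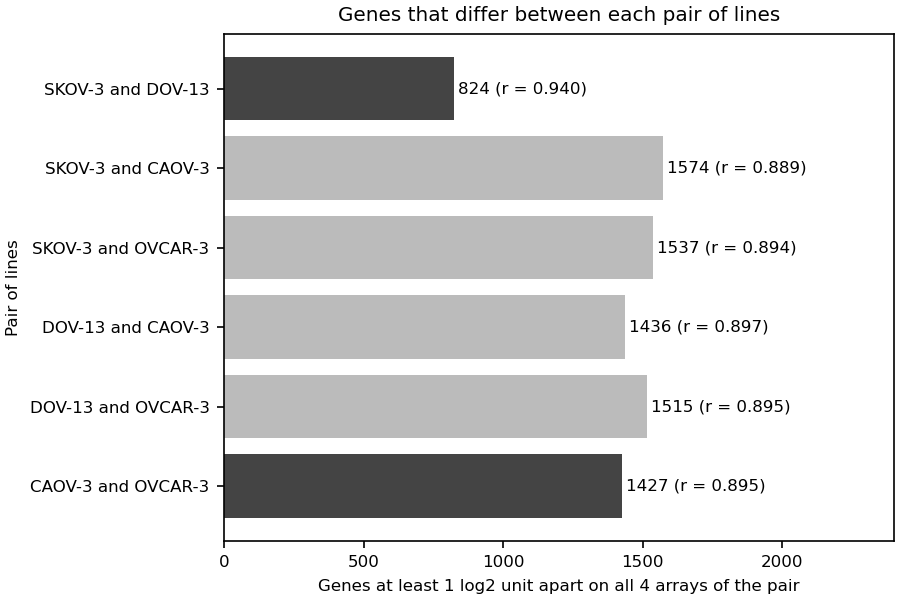
Bars give the number of genes at least 1 log2 unit apart between the arrays of 2 lines, for all 6 pairs, with the correlation of the line means across genes beside each bar. SKOV-3 and DOV-13 have 824 such genes, whereas CAOV-3 and OVCAR-3, also on 1 side (dark bars), have 1427, close to the 1436 to 1574 of the pairs that cross the sides (light bars).

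Junction and adhesion genes of epithelium were the first of 2 epithelial groups on the CAOV-3 and OVCAR-3 side. Of 24 measured members, 8 separated the sides (33.3%, against 2.3% of all genes), all of them higher in CAOV-3 and OVCAR-3, and the median difference was -1.36. Without CAOV-3 the median was -2.04 with 12 members apart, and without OVCAR-3 it was -0.65 with 8. With a line left out fewer arrays have to be apart, and the counts over all genes, given in the last section, were higher too. These list counts are therefore not read as a result about the list. EPCAM, the epithelial cell adhesion molecule, read 8.50 and 8.44 in SKOV-3, 5.42 and 5.94 in DOV-13, 12.58 and 12.55 in CAOV-3, and 11.90 and 12.11 in OVCAR-3. SKOV-3 had an intermediate level, and DOV-13 was lowest. Each array measures RNA of a whole culture, so fewer cells with a transcript and less of it per cell cannot be told apart. LSR, a protein of tricellular tight junctions, read 6.09 and 6.34 in SKOV-3, 5.03 and 5.44 in DOV-13, 9.44 and 9.88 in CAOV-3, and 9.76 and 9.81 in OVCAR-3. PPL, the desmosomal plaque protein periplakin, read 5.81 and 6.41 in SKOV-3, 5.62 and 5.56 in DOV-13, 9.38 and 9.28 in CAOV-3, and 9.30 and 9.17 in OVCAR-3. CDH3, which encodes P-cadherin, read 4.91 and 5.27 in SKOV-3, 5.29 and 5.35 in DOV-13, 7.46 and 7.47 in CAOV-3, and 8.05 and 7.97 in OVCAR-3. In these 3 genes the sides were apart by 3.10, 2.76 and 2.11 log2 units.

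The claudins, which seal tight junctions, differed from the core of the junction. CLDN3 read 6.21 and 6.35 in SKOV-3, 6.22 and 5.99 in DOV-13, 8.25 and 8.12 in CAOV-3, and 8.76 and 8.80 in OVCAR-3. CLDN4 had line means of 5.56, 5.47, 7.58 and 8.31 and CLDN7 of 6.79, 6.30, 8.92 and 8.48 in SKOV-3 and DOV-13 and then CAOV-3 and OVCAR-3, each without overlap between the sides. CLDN1, in contrast, was highest in OVCAR-3 alone, at 7.59 against 4.72 in CAOV-3. The shared scaffold of junctions was near equal: CTNNB1, which encodes beta-catenin, had line means of 10.45, 10.12, 10.01 and 10.01, and TJP1, which encodes ZO-1, had 10.68, 10.79, 10.30 and 10.81. JUP, which encodes plakoglobin, missed the margin with a gap of 0.88, at 7.43, 5.58, 8.34 and 8.75. Desmosomal cadherins did not separate the sides: DSG2 was 11.16, 10.39, 10.06 and 10.09, and DSC2 was high in OVCAR-3 alone, at 8.86. CLDN1, CTNNB1, TJP1, JUP, DSG2 and DSC2 were picked from the list after their values were seen.

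Regulators and membrane proteases of the epithelial programme were the second epithelial group. Of 20 measured members, 11 separated the sides (55%), all higher in CAOV-3 and OVCAR-3, with a median difference of -2.42, or -1.73 when all probe sets of a gene are averaged. ESRP1, the splicing regulator that sets epithelial isoforms, read 4.72 and 5.01 in SKOV-3, 4.89 and 4.75 in DOV-13, 9.12 and 9.05 in CAOV-3, and 9.33 and 9.00 in OVCAR-3. RAB25, a small GTPase of apical recycling, read 4.44 and 4.39 in SKOV-3, 4.62 and 4.70 in DOV-13, 8.23 and 8.22 in CAOV-3, and 9.18 and 8.93 in OVCAR-3. Neither gene was above the array median in SKOV-3 or DOV-13. EHF, an ETS factor of epithelia, read 3.83 and 3.74 in SKOV-3, 3.55 and 3.76 in DOV-13, 6.28 and 7.32 in CAOV-3, and 7.05 and 6.90 in OVCAR-3. Its gap was 2.45, although CAOV-3 was higher with pI:pC by 1.04. OVOL2, a repressor of mesenchymal genes, had line means of 5.81, 5.07, 7.45 and 8.39, while GRHL2 (4.25, 4.14, 5.23 and 5.97) missed both the margin and the level that the rule asks for.

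The matriptase system was part of this group. ST14, which encodes matriptase, a membrane serine protease of epithelia, read 6.70 and 6.90 in SKOV-3, 6.73 and 6.76 in DOV-13, 9.17 and 9.31 in CAOV-3, and 9.03 and 9.00 in OVCAR-3. SPINT1, its Kunitz-type inhibitor HAI-1, read 5.46 and 5.61 in SKOV-3, 5.24 and 5.20 in DOV-13, 8.89 and 9.09 in CAOV-3, and 9.42 and 9.52 in OVCAR-3. The sides were apart by 2.10 for the protease and 3.28 for the inhibitor. SPINT2 (HAI-2) had line means of 9.39, 8.96, 11.45 and 12.23, and PRSS8, which encodes prostasin, had 4.89, 4.81, 7.19 and 6.77. For ST14 another 2 probe sets exist, of which 1 separated the sides the same way and 1 had the opposite sign. MUC1, a transmembrane mucin, and CDS1, an enzyme of phospholipid synthesis, had differences of -3.95 and -2.96, and the other CDS1 probe set had the opposite sign.

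Short sequences upstream of 5 genes that separated the sides are shown with their matches to CACCTG, an E-box that ZEB1 and the SNAI factors bind. The 250 bases before the first-listed start of each gene come from RefSeq, build GRCh38.p14, written 5′ to 3′ on the gene's strand, with each CACCTG or its reverse complement CAGGTG in capitals. TMEM30B (chr14:61281339-61281588, minus strand), GALNT3 (chr2:165794248-165794497, minus strand), RAB25 (chr1:156060910-156061159, plus strand) and MAP7 (chr6:136550423-136550672, minus strand) were higher in CAOV-3 and OVCAR-3. ZEB1 (chr10:31318167-31318416, plus strand) was higher in SKOV-3 and DOV-13. The 5 were chosen after their values and sequences were seen.
TMEM30B: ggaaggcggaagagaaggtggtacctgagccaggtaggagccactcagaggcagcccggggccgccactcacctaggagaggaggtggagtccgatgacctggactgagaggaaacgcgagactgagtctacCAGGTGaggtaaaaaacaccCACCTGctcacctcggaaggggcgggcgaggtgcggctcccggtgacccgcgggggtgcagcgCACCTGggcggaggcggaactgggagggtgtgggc
GALNT3: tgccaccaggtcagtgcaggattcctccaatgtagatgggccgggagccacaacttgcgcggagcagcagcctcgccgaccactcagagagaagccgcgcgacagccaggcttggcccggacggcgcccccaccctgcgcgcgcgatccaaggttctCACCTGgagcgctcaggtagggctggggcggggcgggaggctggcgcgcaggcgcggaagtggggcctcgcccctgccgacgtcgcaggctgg
RAB25: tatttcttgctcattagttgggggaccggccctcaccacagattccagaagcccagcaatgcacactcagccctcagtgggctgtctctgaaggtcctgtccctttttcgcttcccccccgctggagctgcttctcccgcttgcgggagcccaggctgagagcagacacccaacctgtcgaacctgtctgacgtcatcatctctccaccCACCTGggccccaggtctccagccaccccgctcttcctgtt
MAP7: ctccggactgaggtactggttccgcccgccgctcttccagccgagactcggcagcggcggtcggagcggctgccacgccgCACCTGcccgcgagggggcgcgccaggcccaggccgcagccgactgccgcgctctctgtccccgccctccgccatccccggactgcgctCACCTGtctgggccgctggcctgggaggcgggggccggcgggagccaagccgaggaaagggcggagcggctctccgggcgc
ZEB1: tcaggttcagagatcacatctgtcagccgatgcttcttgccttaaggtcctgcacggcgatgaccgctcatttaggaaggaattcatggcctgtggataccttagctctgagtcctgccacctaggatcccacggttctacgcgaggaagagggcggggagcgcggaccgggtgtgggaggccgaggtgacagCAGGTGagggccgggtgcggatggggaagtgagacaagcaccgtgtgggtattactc
TMEM30B holds 3 matches, MAP7 holds 2, and the others hold 1 each. Over the genes with a listed start, the motif was found on either strand in 25 of 104 promoters (24%) of genes higher in CAOV-3 and OVCAR-3, in 18 of 107 (16.8%) of genes higher in SKOV-3 and DOV-13, and in 1533 of 9563 (16%) of all genes. At least 2 matches were found in 4 (3.85%), 3 (2.8%) and 175 (1.83%). A match is a string of letters in this window and shows no binding, and binding was not measured here. The part of ZEB1 or the SNAI factors in the differences between the sides was not tested.

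The genes with those promoters had these levels. TMEM30B, a subunit of phospholipid flippases, read 3.78 and 3.86 in SKOV-3, 3.74 and 3.70 in DOV-13, 10.46 and 10.52 in CAOV-3, and 9.04 and 8.79 in OVCAR-3. GALNT3, which starts mucin-type O-glycosylation, read 3.90 and 3.72 in SKOV-3, 5.70 and 5.88 in DOV-13, 10.51 and 10.52 in CAOV-3, and 10.66 and 10.58 in OVCAR-3, and its other probe set had the opposite sign. MAP7, a microtubule-associated protein of epithelia, had line means of 4.51, 4.51, 9.31 and 8.32. TMEM30B was at or below 3.86 on all SKOV-3 and DOV-13 arrays, and its gap of 4.93 was among the 12 widest in that direction.

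Mesenchymal genes were higher in SKOV-3 and DOV-13, in part of their list. Of 30 measured members, 8 separated the sides (26.7%), all higher in SKOV-3 and DOV-13, and the median difference was 1.57. Without CAOV-3, 14 of the 30 were apart by the margin, in a setting where more of all genes were apart too. The counts over all genes with a line left out are given in the last section, and the 14 are not read as a result about the list. CDH2, which encodes N-cadherin, read 10.04 and 10.08 in SKOV-3, 11.28 and 11.43 in DOV-13, 6.36 and 6.06 in CAOV-3, and 7.53 and 7.20 in OVCAR-3. Its side means were 10.71 ± 0.92 against 6.79 ± 0.82 (SD, n = 2 lines a side), opposite in direction to CDH1 and CDH3. TAGLN, the actin-binding protein transgelin, read 9.65 and 9.72 in SKOV-3, 8.76 and 9.12 in DOV-13, 5.32 and 4.91 in CAOV-3, and 4.65 and 5.11 in OVCAR-3. MSN, which encodes the membrane linker moesin, had line means of 11.90, 11.47, 10.24 and 10.18.

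Among the transcription factors of the transition, ZEB1 and TWIST1 separated the sides and the others did not. ZEB1, a repressor of CDH1, read 8.42 and 8.36 in SKOV-3, 7.72 and 7.65 in DOV-13, 5.41 and 5.14 in CAOV-3, and 5.50 and 5.23 in OVCAR-3. Both of its other probe sets also separated the sides. TWIST1, a basic helix-loop-helix factor, read 7.69 and 7.59 in SKOV-3, 7.83 and 8.06 in DOV-13, 6.49 and 6.15 in CAOV-3, and 6.01 and 5.89 in OVCAR-3. SNAI2, a zinc finger repressor, read 10.85 and 10.70 in SKOV-3, 7.64 and 7.57 in DOV-13, 7.42 and 6.32 in CAOV-3, and 4.18 and 4.13 in OVCAR-3, so that it stood highest in SKOV-3 and lowest in OVCAR-3. DOV-13 and CAOV-3 were close without pI:pC, and CAOV-3 was over 1 log2 unit lower with it. ZEB2 had line means of 3.59, 5.36, 3.33 and 3.45 and SNAI1 of 4.84, 4.86, 4.88 and 4.79, all below the median gene. FOSL1, a subunit of the AP-1 transcription factor and not on the mesenchymal list, read 9.42 and 9.36 in SKOV-3, 9.65 and 9.85 in DOV-13, 5.74 and 6.46 in CAOV-3, and 5.28 and 5.54 in OVCAR-3 and was among the 12 widest gaps of its direction.

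**Figure D3:**
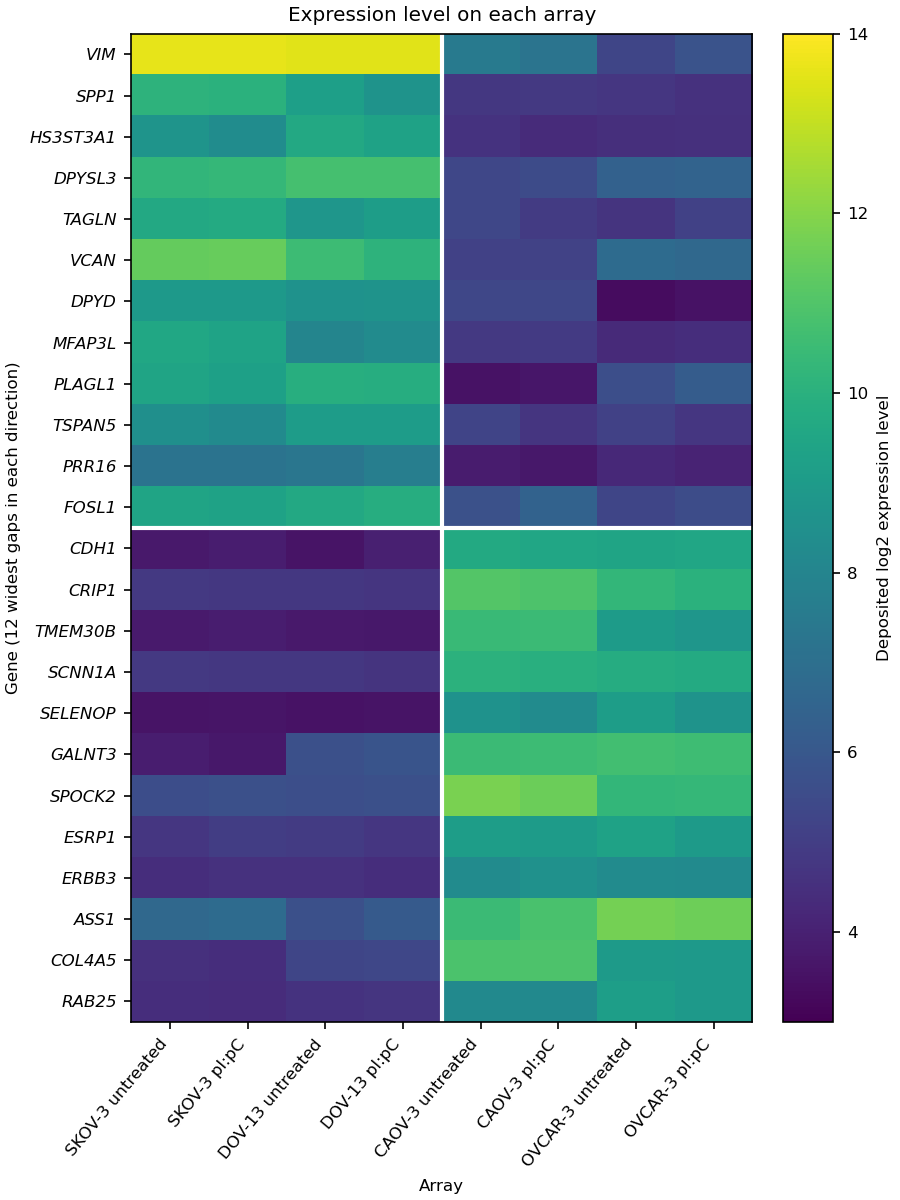
Colour gives the deposited log2 level of the 12 genes with the widest gap in each direction (rows) on each of the 8 arrays (columns), with white lines between the directions and the sides. VIM stands at 13.49 to 13.60 in SKOV-3 and DOV-13 and at 5.30 to 7.53 in the other lines, and the treated and untreated columns of a line look alike.

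CAOV-3 had several mesenchymal transcripts that were low in OVCAR-3, and these are not among the 8. AXL, a receptor tyrosine kinase, read 11.37 and 11.44 in SKOV-3, 11.27 and 11.25 in DOV-13, 10.50 and 10.15 in CAOV-3, and 5.23 and 5.03 in OVCAR-3. SPARC, a secreted matrix glycoprotein, had line means of 11.17, 11.62, 11.56 and 5.23 in SKOV-3 and DOV-13 and then CAOV-3 and OVCAR-3. CD44, the hyaluronan receptor, had 11.09, 11.64, 10.06 and 4.21. In all 3 genes CAOV-3 was closer to SKOV-3 and DOV-13 than to OVCAR-3. TGFBI and TPM2 were also lowest in OVCAR-3, at 6.12 and 5.87. S100A4 and LOX followed no side, since SKOV-3 and DOV-13 differed from each other, at 12.69 and 5.96 for S100A4. SPARC, CD44, TGFBI, TPM2, S100A4 and LOX were picked after their values were seen.

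**Figure D4:**
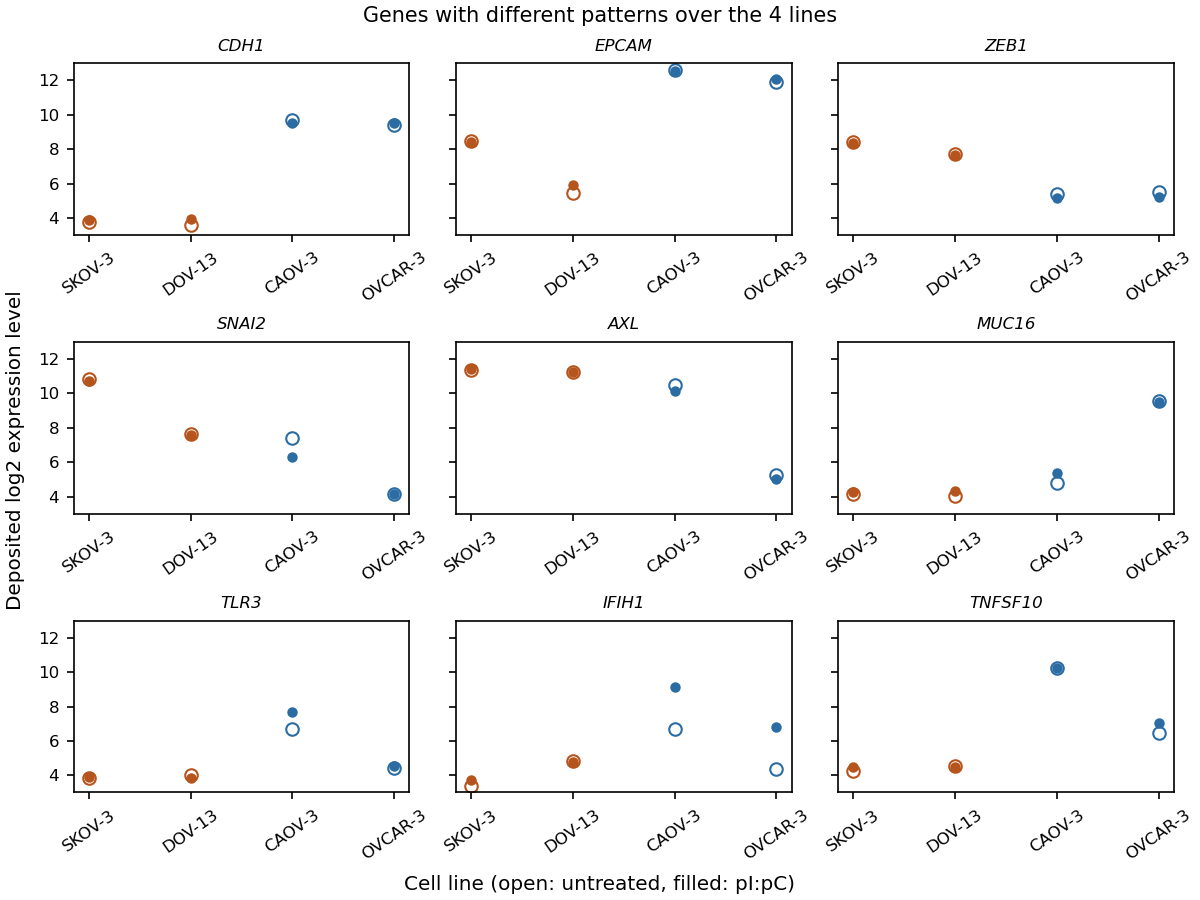
Each panel shows 1 gene with the deposited log2 level (y axis) of the untreated (open) and pI:pC (filled) array of each line (x axis), orange for SKOV-3 and DOV-13 and blue for CAOV-3 and OVCAR-3. CDH1, EPCAM and ZEB1 split the lines by side, whereas AXL is low in OVCAR-3 alone (5.03 to 5.23), MUC16 is high in OVCAR-3 alone (9.52 to 9.59) and IFIH1 differs by treatment in CAOV-3 and OVCAR-3.

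Caveolae, the membrane pits built by caveolins and cavins, were looked at as a group after the values were seen. CAV1 and CAV2 are also 2 of the 8 mesenchymal genes counted above, and the cavins are on no list. Of 6 measured genes, 4 separated the sides (66.7%, against 2.3% of all genes). They were CAV1, CAV2, CAVIN1 and CAVIN3, all higher in SKOV-3 and DOV-13. CAV1 read 12.71 and 12.72 in SKOV-3, 12.77 and 12.82 in DOV-13, 9.98 and 9.64 in CAOV-3, and 8.81 and 8.90 in OVCAR-3. CAV2 had line means of 11.38, 11.55, 10.20 and 8.17, CAVIN1 of 10.80, 11.14, 8.97 and 7.44 and CAVIN3 of 8.96, 8.59, 7.28 and 4.57. CAVIN2 was high in SKOV-3 alone, at 7.42, and CAV3, the muscle form, had line means of 6.39, 6.21, 6.21 and 6.21. In each of the 4 genes OVCAR-3 was the lowest line and CAOV-3 lay between it and the other side.

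Matrix genes separated in 5 of 43 cases (11.6%), 4 of them higher in SKOV-3 and DOV-13. When 1 line was left out 8 to 13 did. The counts over all genes, given in the last section, also rose, so this rise is not read as a result about matrix genes. VCAN, the proteoglycan versican, read 11.39 and 11.43 in SKOV-3, 10.52 and 10.09 in DOV-13, 5.14 and 5.19 in CAOV-3, and 6.83 and 6.71 in OVCAR-3. Its other 4 probe sets all separated the sides. THBS1, which encodes thrombospondin, read 11.81 and 11.73 in SKOV-3, 10.55 and 10.87 in DOV-13, 8.61 and 8.12 in CAOV-3, and 7.00 and 7.69 in OVCAR-3. The basement membrane collagens split by chain. COL4A1 read 11.01 and 11.05 in SKOV-3, 10.53 and 10.71 in DOV-13, 8.09 and 8.14 in CAOV-3, and 9.27 and 9.46 in OVCAR-3, and COL4A2, its neighbour on the chromosome, read 11.35 and 11.39 in SKOV-3, 11.40 and 11.46 in DOV-13, 9.00 and 9.07 in CAOV-3, and 9.44 and 9.68 in OVCAR-3. COL4A5, a chain of another collagen IV trimer, read 4.52 and 4.43 in SKOV-3, 5.29 and 5.32 in DOV-13, 10.89 and 10.91 in CAOV-3, and 9.00 and 8.93 in OVCAR-3, the reverse order with a gap of 3.60. COL4A1 no longer met the rule after the arrays were centred. MMP1 was high in SKOV-3 alone, with line means of 11.35, 3.89, 3.82 and 3.69, and was noticed after its values were seen.

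Adhesion genes outside the junctions went in both directions. Among 26 integrins and laminins, ITGA6, the laminin-binding alpha6 chain, alone separated the sides (3.85%), and it read 10.21 and 10.06 in SKOV-3, 10.61 and 11.05 in DOV-13, 8.74 and 8.72 in CAOV-3, and 8.02 and 7.84 in OVCAR-3. Among 28 cadherins, protocadherins and immunoglobulin-type molecules, 4 separated (14.3%). PCDH7, a protocadherin, read 4.27 and 4.29 in SKOV-3, 4.69 and 4.49 in DOV-13, 9.75 and 9.92 in CAOV-3, and 6.58 and 6.72 in OVCAR-3. MCAM, a cell adhesion molecule also found on vessels, read 5.05 and 5.79 in SKOV-3, 5.56 and 5.59 in DOV-13, 7.79 and 7.59 in CAOV-3, and 6.99 and 6.97 in OVCAR-3. Both were higher in CAOV-3 and OVCAR-3. NRP1, a co-receptor for semaphorins and VEGF, read 8.99 and 8.99 in SKOV-3, 10.44 and 10.32 in DOV-13, 5.52 and 7.28 in CAOV-3, and 3.62 and 3.49 in OVCAR-3, and SEMA3C, a secreted semaphorin, read 10.09 and 10.07 in SKOV-3, 10.34 and 10.42 in DOV-13, 8.36 and 8.81 in CAOV-3, and 8.69 and 8.54 in OVCAR-3. NRP1 was higher with pI:pC in CAOV-3 by 1.77, and its treated CAOV-3 array stayed 1.71 below the lowest array of the other side.

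Growth factor and receptor genes mostly did not separate the sides. Of 36 receptor tyrosine kinases and ligands 1 did (2.78%, close to the 2.3% of all genes): FGF2, a heparin-binding growth factor, which read 9.28 and 9.12 in SKOV-3, 8.37 and 8.36 in DOV-13, 5.36 and 5.20 in CAOV-3, and 5.49 and 5.08 in OVCAR-3. HS3ST3A1, a sulfotransferase that modifies heparan sulfate, was also higher in SKOV-3 and DOV-13 and read 8.69 and 8.35 in SKOV-3, 9.65 and 9.35 in DOV-13, 4.59 and 4.37 in CAOV-3, and 4.50 and 4.51 in OVCAR-3. ERBB3, a receptor that signals in partnership with ERBB2, is counted with the epithelial programme and read 4.46 and 4.56 in SKOV-3, 4.56 and 4.46 in DOV-13, 8.30 and 8.55 in CAOV-3, and 8.29 and 8.27 in OVCAR-3. The gap of ERBB3 was 3.70, although its other probe set, of the same sign, did not reach the margin. ERBB2 was high in SKOV-3 alone and read 10.70 and 10.81 in SKOV-3, 8.65 and 8.44 in DOV-13, 8.21 and 8.05 in CAOV-3, and 8.31 and 8.14 in OVCAR-3. EGFR overlapped between the sides and read 9.68 and 9.68 in SKOV-3, 9.65 and 9.62 in DOV-13, 10.60 and 10.86 in CAOV-3, and 9.14 and 9.25 in OVCAR-3.

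Activins and inhibins share the beta chains encoded by INHBA and INHBB, and the 2 genes differed in opposite directions, INHBA mainly through DOV-13. INHBA, the chain of activin A, read 6.35 and 6.52 in SKOV-3, 10.05 and 9.84 in DOV-13, 4.86 and 4.80 in CAOV-3, and 5.13 and 5.03 in OVCAR-3. INHBB, the chain of activin B, read 5.61 and 5.71 in SKOV-3, 5.58 and 5.71 in DOV-13, 7.92 and 8.09 in CAOV-3, and 9.18 and 9.35 in OVCAR-3. INHBA was highest in DOV-13, and INHBB stayed at or below 5.72 in SKOV-3 and DOV-13. Without DOV-13 the INHBA difference was 1.48, with the mean of its probe sets it was 1.77, and in neither case did it separate the sides. INHBA and INHBB were the only 2 of 32 TGF-beta and BMP genes (6.25%) that met the rule. In WNT, Notch and Hedgehog signalling 2 of 37 did (5.41%), the WNT receptor FZD2 (10.14, 9.41, 8.31 and 7.93 as line means) and the secreted DKK3 (10.43, 10.56, 8.18 and 8.77), both higher in SKOV-3 and DOV-13. In the RAS-MAPK and PI3K list the 2 of 30 (6.67%) were FOSL1 and PIK3R3, a regulatory subunit of PI3-kinase with side means of 6.06 ± 0.55 against 8.35 ± 0.49 (SD, n = 2 lines a side).

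Of 24 HOX genes measured, 3 separated the sides (12.5%), all from the HOXB cluster and higher in SKOV-3 and DOV-13. HOXB2 read 9.97 and 9.95 in SKOV-3, 9.97 and 10.06 in DOV-13, 8.06 and 8.03 in CAOV-3, and 6.70 and 6.67 in OVCAR-3. HOXB6 read 10.10 and 10.20 in SKOV-3, 9.05 and 9.33 in DOV-13, 6.19 and 6.62 in CAOV-3, and 4.53 and 4.88 in OVCAR-3. HOXB5 was dimmer, read 7.89 and 7.74 in SKOV-3, 7.98 and 7.67 in DOV-13, 6.42 and 6.63 in CAOV-3, and 6.53 and 6.50 in OVCAR-3, and lay at the edge with a gap of 1.04, which fell under the margin after centring. HOX genes give cells their position along the body axis, and these 3 lie on chromosome 17. The HOX list as a whole had a median difference of 0.07, near the 0.04 of all genes.

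Of 27 ovarian and Mullerian markers, 4 separated the sides (14.8%, against 2.3% of all genes), 3 of them higher in CAOV-3 and OVCAR-3. The median difference was -0.38. The mean was higher in CAOV-3 and OVCAR-3 for 21 markers, as for 5332 of all 11963 genes, and in SKOV-3 and DOV-13 for 6. The sides overlapped for 18 of the 27, as they did for 8786 of the 11963 genes. Without CAOV-3, 12 separated, and without OVCAR-3, 7 did. The counts over all genes, given in the last section, rose as well, so this rise is not read as a result about these markers. WFDC2, the HE4 serum marker, read 6.66 and 6.75 in SKOV-3, 6.75 and 6.63 in DOV-13, 9.95 and 10.27 in CAOV-3, and 9.62 and 9.85 in OVCAR-3. SPP1, the secreted phosphoprotein osteopontin, read 10.12 and 10.04 in SKOV-3, 9.23 and 8.64 in DOV-13, 4.78 and 4.83 in CAOV-3, and 4.76 and 4.57 in OVCAR-3. WFDC2 was higher in CAOV-3 and OVCAR-3 and SPP1 was higher in SKOV-3 and DOV-13. MUC16, which carries the CA125 antigen, read 4.13 and 4.26 in SKOV-3, 4.05 and 4.35 in DOV-13, 4.80 and 5.38 in CAOV-3, and 9.59 and 9.52 in OVCAR-3, so that CAOV-3 was near SKOV-3 and DOV-13. WT1 was detected above the array median in OVCAR-3 alone, at 6.78 and 6.94. SOX17 and EMX2, seen after the values were known, were highest in OVCAR-3 too, with line means of 9.61 and 9.89 against 4.41 and 3.70 in CAOV-3.

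Some secreted proteases and protease inhibitors were higher in CAOV-3 and OVCAR-3. Kallikreins are serine proteases encoded in 1 cluster on chromosome 19. Of 13 measured, 3 separated the sides (23.1%, against 2.3% of all genes). The sides overlapped for 8, as they did for 8786 of all 11963 genes, and the median difference was -0.11. KLK6 read 5.25 and 5.51 in SKOV-3, 5.27 and 5.06 in DOV-13, 9.38 and 8.79 in CAOV-3, and 7.06 and 7.02 in OVCAR-3. KLK10 read 4.73 and 4.93 in SKOV-3, 4.63 and 4.94 in DOV-13, 6.50 and 9.08 in CAOV-3, and 8.25 and 8.46 in OVCAR-3, including a difference of 2.57 with pI:pC in CAOV-3, the largest treatment difference of any gene that separated, and it did not separate when its probe sets were averaged. KLK5 had line means of 5.72, 5.60, 10.53 and 8.66. Of 9 Kunitz and WAP-domain inhibitors, 4 separated (44.4%, against 2.3% of all genes): SPINT1, SPINT2, WFDC2 and SLPI. SLPI, the secretory leukocyte protease inhibitor, had line means of 6.42, 6.23, 10.26 and 10.32 in SKOV-3 and DOV-13 and then CAOV-3 and OVCAR-3. TFPI, tissue factor pathway inhibitor, went the other way without reaching the rule, with line means of 8.50, 4.62, 3.79 and 3.85 in the same order of lines, and TFPI2 overlapped between the sides. The 2 families were put together after values were seen, and PI3 of the second was high in CAOV-3 mainly with pI:pC, at 8.56 against 6.16 untreated.

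In the tumour suppressor and cell cycle list 2 of 31 genes separated the sides (6.45%, against 2.3% of all genes). CDKN2A, which encodes the CDK inhibitor p16 and the ARF protein, read 6.69 and 6.68 in SKOV-3, 6.48 and 6.69 in DOV-13, 10.21 and 10.18 in CAOV-3, and 11.10 and 11.15 in OVCAR-3. MYC, a growth-promoting transcription factor, read 9.96 and 9.75 in SKOV-3, 10.23 and 10.25 in DOV-13, 6.92 and 8.03 in CAOV-3, and 8.39 and 8.63 in OVCAR-3, higher in SKOV-3 and DOV-13. RB1, the target of the kinases that p16 inhibits, had line means of 9.55, 10.11, 3.59 and 8.58, with CAOV-3 alone far below the rest, and was noticed after its values were seen. CCNE1, which encodes cyclin E, read 7.66 and 7.54 in SKOV-3, 7.87 and 7.91 in DOV-13, 8.32 and 8.95 in CAOV-3, and 10.48 and 10.59 in OVCAR-3. Of 33 cell death genes TNFSF10 alone separated (3.03%, close to the share of all genes): it encodes the death ligand TRAIL and read 4.23 and 4.46 in SKOV-3, 4.52 and 4.45 in DOV-13, 10.22 and 10.22 in CAOV-3, and 6.43 and 7.07 in OVCAR-3. CAOV-3 was well above OVCAR-3, and both were above SKOV-3 and DOV-13 without pI:pC as well. Without CAOV-3, TNFSF10 no longer reached the level that the rule asks for.

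None of the 26 genes of double-stranded RNA sensing and interferon signalling separated the sides (0%, against 2.3% of all genes), and the median difference was -0.15. On the pI:pC arrays alone 4 members were apart by the margin, without OVCAR-3 4 were, and without DOV-13 1 was. Fewer arrays have to be apart in these settings, and with a line left out the counts over all genes rose too. Those counts are given in the last section, and the list counts are not read as a result about these genes. TLR3, the endosomal sensor, read 3.84 and 3.92 in SKOV-3, 4.01 and 3.82 in DOV-13, 6.67 and 7.67 in CAOV-3, and 4.43 and 4.53 in OVCAR-3. The sides did not overlap, with a gap of 0.42, and the treated CAOV-3 array was the only one above the median gene. IFIH1, the cytosolic sensor MDA5, read 3.37 and 3.75 in SKOV-3, 4.82 and 4.75 in DOV-13, 6.69 and 9.15 in CAOV-3, and 4.35 and 6.82 in OVCAR-3. Untreated OVCAR-3 was below untreated DOV-13, so the sides overlapped. RIGI had line means of 4.60, 5.76, 7.46 and 7.29, a gap of 0.66 with no overlap between the sides, and was chosen after its values were seen. MAVS, the adaptor of both cytosolic sensors, had 6.84, 6.36, 6.79 and 5.04, and IRF3 had 7.80, 7.70, 7.97 and 7.64.

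Drug-handling genes went in both directions. Of 26 drug-handling genes 3 separated (11.5%). ABCC4, an efflux transporter, read 7.90 and 7.73 in SKOV-3, 8.97 and 8.91 in DOV-13, 4.70 and 4.63 in CAOV-3, and 5.91 and 5.89 in OVCAR-3, higher in SKOV-3 and DOV-13. GPX3, a secreted glutathione peroxidase, read 5.08 and 5.06 in SKOV-3, 4.98 and 5.01 in DOV-13, 10.08 and 10.02 in CAOV-3, and 7.38 and 7.31 in OVCAR-3, and GSTM3, a glutathione transferase, read 4.87 and 4.90 in SKOV-3, 6.94 and 6.80 in DOV-13, 9.80 and 9.65 in CAOV-3, and 9.02 and 8.86 in OVCAR-3, both higher in CAOV-3 and OVCAR-3. DPYD, which breaks down fluoropyrimidines and lies outside that list, read 8.92 and 8.89 in SKOV-3, 8.59 and 8.65 in DOV-13, 5.36 and 5.36 in CAOV-3, and 3.36 and 3.55 in OVCAR-3. Of 13 cancer-testis antigens PRAME separated (7.69%) and read 7.16 and 7.52 in SKOV-3, 5.08 and 4.90 in DOV-13, 9.65 and 10.12 in CAOV-3, and 8.77 and 9.06 in OVCAR-3. Reference genes separated in 0 of 11 cases and keratins in 0 of 14, and KRT7 was low in SKOV-3 alone, at 7.51 and 7.54.

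**Figure D5:**
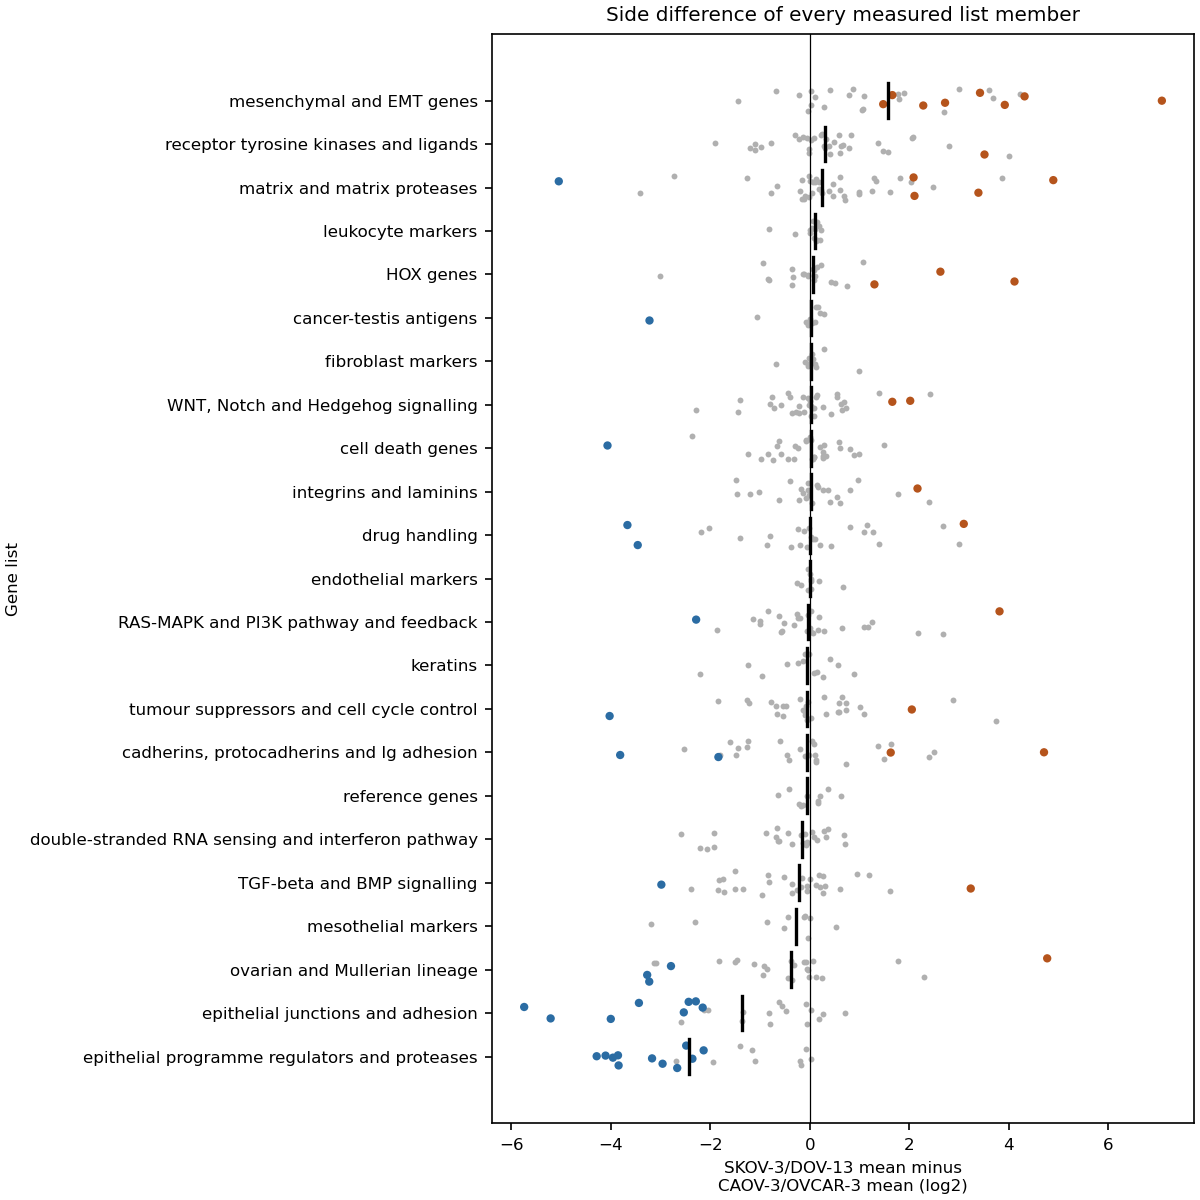
Each point is a measured member of a gene list (y axis) at its difference between the mean of SKOV-3 and DOV-13 and the mean of CAOV-3 and OVCAR-3 (x axis, log2), coloured where the gene separated the sides, with a black bar at the list's median. The epithelial lists lie to the left with medians of -1.36 and -2.42, the mesenchymal list lies to the right with 1.57, and the medians of the others are between -0.38 and 0.31.

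Several of the widest gaps belonged to genes outside these themes. CRIP1, a small LIM-domain protein, read 4.82 and 4.77 in SKOV-3, 4.76 and 4.70 in DOV-13, 11.05 and 10.95 in CAOV-3, and 10.26 and 10.03 in OVCAR-3. SCNN1A, the alpha subunit of the epithelial sodium channel, read 4.84 and 4.80 in SKOV-3, 4.80 and 4.67 in DOV-13, 10.07 and 9.94 in CAOV-3, and 9.83 and 9.74 in OVCAR-3. The other 2 SCNN1A probe sets had the same sign but overlapped between the sides. SELENOP, the selenium carrier selenoprotein P, read 3.59 and 3.61 in SKOV-3, 3.56 and 3.60 in DOV-13, 8.63 and 8.32 in CAOV-3, and 9.14 and 8.65 in OVCAR-3. These 3 were at or below 4.84 on every SKOV-3 and DOV-13 array. SPOCK2, a matrix proteoglycan, read 5.60 and 5.68 in SKOV-3, 5.65 and 5.68 in DOV-13, 11.80 and 11.52 in CAOV-3, and 10.29 and 10.31 in OVCAR-3, and ASS1, which makes argininosuccinate for arginine synthesis, read 6.70 and 6.83 in SKOV-3, 5.71 and 6.11 in DOV-13, 10.50 and 10.84 in CAOV-3, and 11.69 and 11.59 in OVCAR-3. ASS1 was low but above the array median in SKOV-3.

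In the other direction, DPYSL3, a cytoskeletal phosphoprotein of the CRMP family, read 10.23 and 10.31 in SKOV-3, 10.74 and 10.78 in DOV-13, 5.34 and 5.52 in CAOV-3, and 6.41 and 6.48 in OVCAR-3. PLAGL1, an imprinted zinc finger factor, read 9.41 and 9.26 in SKOV-3, 9.88 and 9.86 in DOV-13, 3.56 and 3.66 in CAOV-3, and 5.65 and 6.18 in OVCAR-3. MFAP3L read 9.54 and 9.39 in SKOV-3, 8.01 and 8.33 in DOV-13, 4.83 and 4.86 in CAOV-3, and 4.29 and 4.42 in OVCAR-3. For PLAGL1 the 2 lines of the low side differed by over 2 units, more than SKOV-3 and DOV-13 did. TSPAN5, a tetraspanin that regulates ADAM10, had side means of 8.73 ± 0.50 against 4.95 ± 0.033, and PRR16 of 7.35 ± 0.22 against 3.97 ± 0.28 (SD, n = 2 lines a side).

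Some genes that separated the sides lie close to each other on a chromosome. Successive genes among the 275 were paired when within 100 kb in the RefSeq gene table of GRCh38.p14. Genes that did not separate may lie between them. This gave 20 pairs made of 35 genes, all 20 with the same direction, without a share over close pairs of all genes beside it. The 20 pairs include CDH3 and CDH1, CLDN3 and CLDN4, COL4A1 and COL4A2, CAV2 and CAV1, EFNA1 and MUC1, the HOXB and KLK genes above, and FOSL1 with C11orf68. Another 4 of the pairs are histone genes of chromosome 6. Of 41 replication-dependent histone genes measured, a family put together after values were seen, 7 separated (17.1%, against 2.3% of all genes). All 7 were higher in CAOV-3 and OVCAR-3: H1-2, H2AC6, H2BC5, H2BC6, H2BC9, H2BC12 and H2BC12L. H1-2 had line means of 5.98, 5.50, 9.60 and 9.33 and H2BC12 of 7.72, 8.58, 10.60 and 11.81. The H2A and H2B genes are close copies whose probe sets can share transcripts, so the 7 values are not independent measurements.

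The 275 genes were selected with treated and untreated arrays together, so a treatment difference that closed the margin kept a gene out. Within them, the largest treated-minus-untreated difference of a gene over the 4 lines had a median size of 0.31, and it was under 0.5 for 223 genes. It reached 1 in 6 genes: EHF, NRP1, KLK10, SLC12A8, MEOX1 and MYC. The side difference, which the rule fixes to be large, had a median size of 2.42. Lines of the same side differed by a median of 0.34 between SKOV-3 and DOV-13 and 0.58 between CAOV-3 and OVCAR-3. Gaps of at least 2 units were found for 34 genes higher in SKOV-3 and DOV-13 and for 47 higher in CAOV-3 and OVCAR-3, and gaps of at least 3 for 10 and 20.

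The margin of 1 unit lay within a continuous range of gaps. Just inside it were ARHGEF3 (1.003) and ARHGEF5 (1.009), higher in CAOV-3 and OVCAR-3, and SDC3 (1.018) and BICD2 (1.004), higher in SKOV-3 and DOV-13. Just outside were HOMER1 (0.994) and TUG1 (0.996), higher in CAOV-3 and OVCAR-3, and MICAL1 (0.999) and FERMT1 (0.999), higher in SKOV-3 and DOV-13. Of the 275 genes, 120 have further probe sets on the array. For 109 of them every further probe set had the same sign, and for 58 at least 1 of them was also apart by the margin. The 11 with a probe set of the opposite sign are AKAP7, CDS1, DLC1, DNAJC6, DST, GALNT3, PLIN2, SLC39A8, ST14, TFAP2C and ZFP36L1.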

How the data were processed

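RNA of 8 arrays, from 4 cell lines with and without pI:pC, was measured as biotin-labelled cRNA with 22277 Affymetrix probe sets, 62 of them array controls. The authors deposited their values on a log2 scale, and the submitters' processing notes name RMA, without a version in the sources used here. RMA brings arrays to a common distribution and compresses differences of dim probe sets, so differences of genes near background are understated. The number of arrays limits the precision.

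Gene names came from the platform's annotation: 19064 carry 1 gene symbol, 1043 several and 2170 none here. Each of 11963 genes was read from its brightest probe set on average, and 4310 genes have more than 1. A line is the mean of its 2 arrays, so the cell line pairs treated with untreated. A limma model (lmFit and eBayes of version 3.58.1 under R 4.3.3) was fitted to the 4 line means, two-sided with Benjamini-Hochberg adjustment, after the script was tested on simulated data. Its p-values measure the spread between lines.

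The members, the 23 gene lists (659 members, 557 measured) and all rules were chosen with earlier results of these data known. Named genes are the 12 widest gaps in each direction, up to 6 separating members per list, the 2 genes nearest the margin on each side of it in each direction, and a set fixed by name. Other genes were named after their values were seen. List members without a named probe set were not analysed here. Promoters were taken from RefSeq for the genes with a listed start. Alternatives were other probe-set rules, quantile normalization again, centring, the untreated or the pI:pC arrays alone, other margins, no level filter, other limma settings, and each line left out.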

Additional observations from a re-analysis of the deposited data

How the results depend on the processing

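The counts of 138 and 137 stayed between 118 and 182 and between 117 and 187 over the 4 untreated arrays, the 4 pI:pC arrays, other probe-set rules, quantile normalization again, centring and no level filter. With a margin of 0.5 they were 396 and 307, and with a margin of 2 they were 34 and 47. Leaving out 1 line gave 323 to 420 genes higher in SKOV-3 and DOV-13 and 277 to 475 higher in CAOV-3 and OVCAR-3, since fewer arrays have to be apart. Of the 275 genes, 271 kept their separation on the untreated arrays, 275 on the pI:pC arrays, 261 after quantile normalization, 258 after centring and 220 with the mean of a gene's probe sets. With that mean, DKK3, INHBA, KLK10, MFAP3L, NRP1, PCDH7, PIK3R3 and THBS1 no longer separated the sides. ARHGEF3, BICD2, SDC3 and HOXB5 no longer did after quantile normalization or centring, nor did COL4A1 and FZD2 after centring, and EHF did not on the untreated arrays. Without DOV-13 INHBA, and without CAOV-3 PCDH7 and TNFSF10, no longer met the rule. No named gene that separated the sides changed sign. EGFR, KRT7, PAX8 and WT1, which did not separate, changed sign when a line was left out. limma called 0 genes on the line means in every setting tried, 231 with the 8 arrays and the line as a random block, and 1379 with the arrays counted as independent, which treats the 2 arrays of a line as separate lines. Limited to genes at or above the median level, a choice made after seeing the data, SKOV-3 and DOV-13 correlated across genes at 0.834 and the other 5 pairs at 0.704 to 0.722. No paired analysis was possible because replicate numbers were given in accession order and pair no lines across the sides. The 2 lines a side, 1 array per condition and no signal for background limit every value.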
